A study of Mus musculus with 8 samples.

Results

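The BCL2 family sets the threshold at which a cell commits to the mitochondrial pathway of apoptosis, and 10 of its genes were followed here in lung endothelial cells (ECs) of newborn mice reared in normoxia or hyperoxia. The 10 genes were taken by symbol from the 54532 genes of the count table. They were the survival genes Bcl2, Bcl2l1, Bcl2l2 and Mcl1, the effector genes Bak1 and Bok, and the BH3-only genes Bid, Bcl2l11, Bik and Bmf. The family genes best known as p53 targets (Bax, Bbc3 and Pmaip1) were not among them. All 10 passed the filter on low counts, with between 75 and 12935 counts per gene and library, and so belonged to the 15564 genes tested.

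Survival proteins of this family hold the effectors in check, and BH3-only proteins are sensors of stress that bind the survival proteins or activate the effectors. When the effectors are free, they open the outer mitochondrial membrane, cytochrome c escapes and caspases are activated. In blood vessels this balance matters for survival under growth factor signalling and for the removal of ECs when vessels regress, in which the BH3-only protein BIM, the product of Bcl2l11, takes part.

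RNA of lung ECs was sequenced in bulk from WT C57BL/6J pups, and no transgene or deletion was involved. Pups lived in room air (21% O2, 4 libraries) or in hyperoxia (80% O2, 4 libraries) from postnatal day 0, and lungs were taken at day 14. This exposure is a mouse model of bronchopulmonary dysplasia. ECs were collected with CD31 beads after CD45-positive leukocytes had been removed with beads, so any other lung cells left on the beads would have contributed RNA. The labels did not say whether a library came from 1 pup or from several, and 5 of the 8 libraries held over 100 counts of both Xist and 4 Y-linked genes. The p-values therefore measure the spread between these libraries.

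Libraries held 16098086 to 18300730 counts. The EC markers Cdh5 and Pecam1 stood at 4121 ± 175 and 2902 ± 120 CPM (counts scaled by library size) in normoxia. In hyperoxia they stood at 4035 ± 140 and 2822 ± 112 CPM (SD, n = 4 each). Of 12 EC markers 3 were higher and 4 lower in hyperoxia, against 18.5% and 17.1% of all genes tested. Among the 12, Tek fell most, from 1182 to 682 CPM (log2 fold change -0.79), and Emcn rose most, from 262 to 350 CPM (0.42). The list summed to 17152 to 17998 CPM in normoxia and to 16464 to 17303 CPM in hyperoxia. Markers of alveolar type 2 (AT2) epithelial cells, which make surfactant, were higher in hyperoxia in 10 of 10 cases, with sums of 252 to 355 CPM (normoxia) and 806 to 2413 CPM (hyperoxia). Hyperoxia 3 was the library at 806 CPM, whereas the other 3 hyperoxia libraries held at least 2120 CPM, and on the first principal component of all genes it stood at 20.3 where the others stood at 40.2 to 42.9 and normoxia at -43.6 to -28.5. None of the 10 AT2 markers was at 0. The part of this epithelial RNA in the results below was not tested beyond the values given. In bulk samples, fewer cells of a type and less RNA per cell cannot be told apart.

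Of the 10 genes, 8 had an adjusted p under 0.05 in edgeR's quasi-likelihood test, against 35.6% of all genes tested. The survival genes Bcl2 and Bcl2l1 and the effector genes Bak1 and Bok rose, while 3 of the 4 BH3-only genes, Bcl2l11, Bik and Bmf, fell and the other, Bid, rose. Thus 5 genes were higher, where 18.5% of all genes tested were higher, and 3 were lower, where 17.1% were lower. In the same 8 genes the 4 hyperoxia libraries did not overlap the 4 normoxia libraries, which held for 35.4% of all genes (17.8% higher and 17.6% lower). The median absolute log2 fold change of the 10 genes was 0.73, and that of all genes tested was 0.23. Bok and Bcl2l11 also changed by at least 2-fold, as 6.98% of all genes did together with the p threshold (5.62% higher and 1.36% lower). The 10 genes were chosen with earlier results of these data known. These shares and medians are therefore a description and no test of the family.

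**Figure D1:**
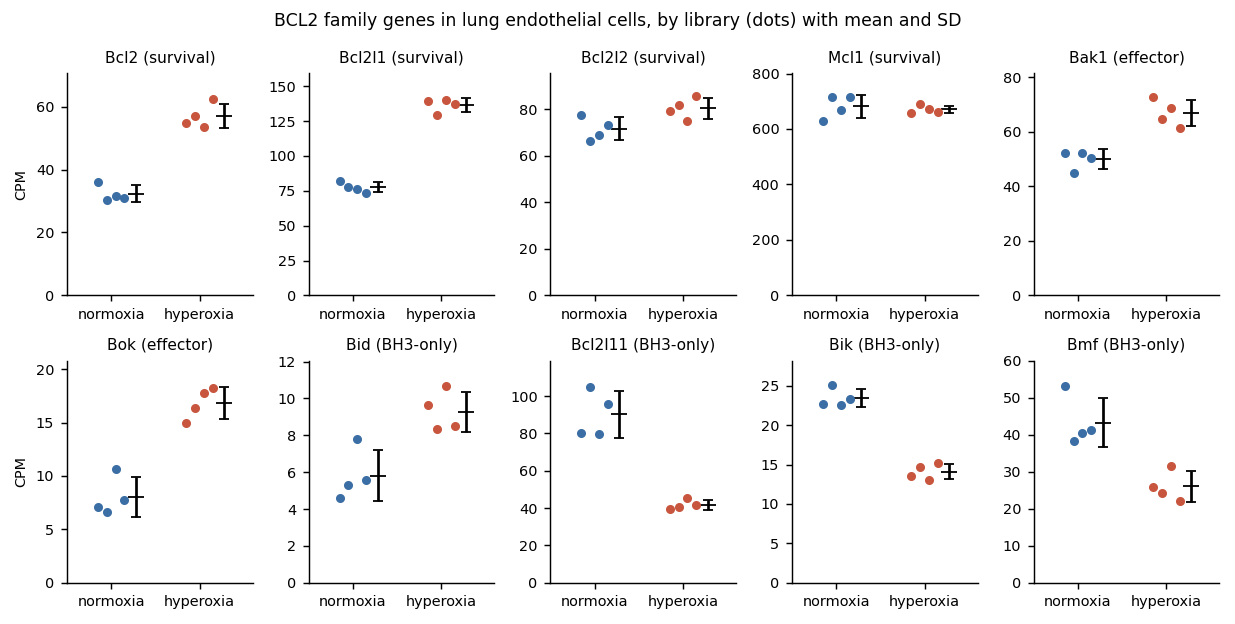
CPM (vertical axes, from 0) of the 10 BCL2 family genes in each normoxia (blue) and hyperoxia (red) library, with mean and SD (n = 4) beside the dots. Groups overlap only in Bcl2l2 and Mcl1, and Bcl2l11 shows the largest fall, from 90.2 to 41.8 CPM.

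**Figure D2:**
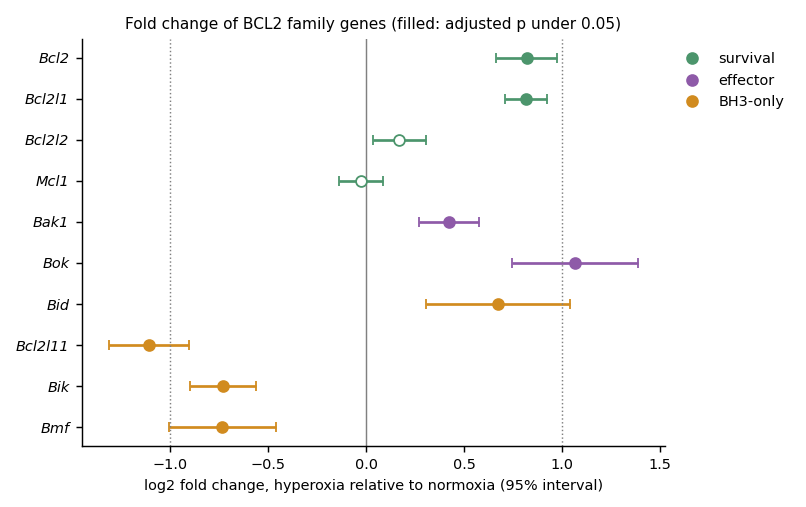
Log2 fold change of each gene in hyperoxia relative to normoxia (horizontal axis) with its 95% interval derived from the edgeR fit, coloured by role. Filled points have an adjusted p under 0.05 and dotted lines mark an absolute log2 fold change of 1, which Bok (1.07) and Bcl2l11 (-1.11) pass.

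The sequences just before and at the start sites of 2 genes that fell and 2 that rose are shown, the BH3-only genes Bcl2l11 and Bmf and the survival genes Bcl2 and Bcl2l1. Each window runs from 250 bases before to 50 bases after a RefSeq start site in GRCm38.p6, 5′ to 3′ on the gene's strand. Where a gene had several windows, the one nearest to its start in the count table was taken. Capitals mark matches, on either strand, to the FOXO core GTAAACA, the GC box GGGCGG or the CCAAT box, which on the other strand read TGTTTAC for the first, CCGCCC for the second and ATTGG for the third. TATAAA, the cAMP response element TGACGTCA, the AP-1 site TGACTCA and the E-box CACGTG were searched as well and had no match in any of the 9 members' windows. None of the matches shown overlapped another.
Bcl2l11 (chr2:128125788-128126087, plus strand): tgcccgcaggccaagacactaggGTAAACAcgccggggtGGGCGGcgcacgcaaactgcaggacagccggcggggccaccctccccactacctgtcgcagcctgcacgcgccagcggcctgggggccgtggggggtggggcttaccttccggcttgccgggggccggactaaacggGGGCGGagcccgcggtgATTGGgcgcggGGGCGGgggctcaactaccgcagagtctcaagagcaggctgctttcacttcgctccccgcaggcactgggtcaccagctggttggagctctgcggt
Bmf (chr2:118549637-118549936, minus strand): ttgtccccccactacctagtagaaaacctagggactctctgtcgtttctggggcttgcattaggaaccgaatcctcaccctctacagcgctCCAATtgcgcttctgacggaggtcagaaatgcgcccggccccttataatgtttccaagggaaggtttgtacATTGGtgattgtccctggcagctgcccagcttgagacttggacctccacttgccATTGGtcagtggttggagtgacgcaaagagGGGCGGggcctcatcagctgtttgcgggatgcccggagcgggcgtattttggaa
Bcl2 (chr1:106714241-106714540, minus strand): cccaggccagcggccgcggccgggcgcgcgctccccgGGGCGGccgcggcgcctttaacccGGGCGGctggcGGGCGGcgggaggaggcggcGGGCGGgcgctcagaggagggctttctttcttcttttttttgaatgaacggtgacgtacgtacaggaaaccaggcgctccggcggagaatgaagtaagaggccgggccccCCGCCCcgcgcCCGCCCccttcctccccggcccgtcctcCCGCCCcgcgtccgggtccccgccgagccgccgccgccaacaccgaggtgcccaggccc
Bcl2l1 (chr2:152831679-152831978, minus strand): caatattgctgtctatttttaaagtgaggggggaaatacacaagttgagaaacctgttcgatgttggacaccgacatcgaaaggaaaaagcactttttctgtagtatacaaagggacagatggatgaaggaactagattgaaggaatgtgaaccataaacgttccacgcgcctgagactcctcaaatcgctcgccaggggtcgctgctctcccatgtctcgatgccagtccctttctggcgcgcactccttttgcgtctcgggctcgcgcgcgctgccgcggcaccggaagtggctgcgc

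The Bcl2l11 window held 1 FOXO core, with its first base at -227 from the start site, beside 3 GC boxes and 1 CCAAT box. Of 32851 mouse windows of this length, 3.65% held the FOXO core, 35.7% a GC box and 37.4% a CCAAT box. The windows of the other 8 members for which a window was available held no FOXO core. The Bcl2 window held 7 GC boxes and had a GC content of 76%, and the Bmf window held 3 CCAAT boxes and 1 GC box. The Bcl2l1 window held none of the 7 motifs. Such matches are letters in a window and were not tested for binding.

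Bcl2 and Bcl2l1 rose by nearly the same factor among the survival genes. Bcl2l1 (ENSMUSG00000007659, chromosome 2, 152780668 to 152831728, GRCm38) encodes BCL-XL, which binds and restrains BAX, BAK and several BH3-only proteins. It had 82.3, 77.7, 76.6 and 73.7 CPM in normoxia 1 to 4 and 139, 129, 140.0 and 138 CPM in hyperoxia 1 to 4. Every hyperoxia library thus stood at least 47.0 CPM above the highest normoxia library. The means were 77.6 ± 3.57 and 137 ± 4.91 CPM (SD, n = 4 each), a 1.76-fold rise with a log2 fold change of 0.82 (SE 0.0484, edgeR adjusted p 1.01e-06).

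Bcl2 (ENSMUSG00000057329, chromosome 1, 106538178 to 106714274), the founding member of the family, had 36.2, 30.4, 31.7 and 30.9 CPM in normoxia 1 to 4 and 54.9, 56.9, 53.6 and 62.5 CPM in hyperoxia 1 to 4. The groups were apart by 17.4 CPM, with normoxia 1 the highest of its group and hyperoxia 4 the highest of the other. From 32.3 ± 2.63 to 57.0 ± 3.95 CPM (SD, n = 4 each) the log2 fold change was 0.82 (SE 0.0709, edgeR adjusted p 1.12e-05). Exons of Bcl2 share 6.09% of their bases with an antisense gene, D630008O14Rik, whose own level was 0.0978 CPM in normoxia against 0.213 CPM in hyperoxia.

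The most abundant survival gene did not follow. Mcl1 (ENSMUSG00000038612, chromosome 3, 95658788 to 95663176) encodes a survival protein that cells turn over quickly. Its libraries held 629.5 to 716 CPM in normoxia and 659 to 689 CPM in hyperoxia, so that the hyperoxia libraries lay wholly within the normoxia range. The log2 fold change was -0.03 (SE 0.0507, edgeR adjusted p 0.734). In this fit, with group as the only term, its 95% interval ran from -0.14 to 0.09, or from 0.909-fold to 1.06-fold.

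Bcl2l2 (ENSMUSG00000089682, chromosome 14, 54883377 to 54888234), which encodes the survival protein BCL-W, had 77.6, 66.5, 68.9 and 73.2 CPM in normoxia 1 to 4 and 79.4, 81.6, 74.8 and 85.8 CPM in hyperoxia 1 to 4. Hyperoxia 3 lay below normoxia 1, and the other 3 hyperoxia libraries lay above all of normoxia. The log2 fold change was 0.17 (SE 0.0613) with a 95% interval of 0.03 to 0.30, and the edgeR adjusted p was 0.0529. This gene passed the threshold without normoxia 1 (edgeR adjusted p 0.0259) and without hyperoxia 3 (0.0329). Exons of Gm20521, on the same strand, cover 13.3% of the exon bases of Bcl2l2, and Gm20521 stood at 0 CPM in both groups. How reads that match both genes were counted is not given in the sources used here.

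Both effector genes rose. Bak1 (ENSMUSG00000057789, chromosome 17, 27019810 to 27029009) encodes BAK, which sits in the outer mitochondrial membrane and forms pores when activated. Its libraries held 52.4, 44.8, 52.4 and 50.4 CPM in normoxia 1 to 4 and 72.7, 64.8, 69.0 and 61.5 CPM in hyperoxia 1 to 4. The lowest hyperoxia library, number 4, was 9.05 CPM above the highest normoxia library. The change from 50.01 ± 3.61 to 67.0 ± 4.91 CPM (SD, n = 4 each) was 1.34-fold, a log2 fold change of 0.42 (SE 0.0689, edgeR adjusted p 0.000839). Exons of Ggnbp1 on the other strand cover 18.2% of the exon bases of Bak1, and Ggnbp1 stood at 1.66 and 1.38 CPM. A further entry of that name, also on the other strand, covers 7.35% of them, and no level is available for it.

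Bok (ENSMUSG00000026278, chromosome 1, 93685660 to 93695764) encodes an effector resembling BAX and BAK that is found largely at the endoplasmic reticulum. It had 7.10, 6.60, 10.7 and 7.73 CPM in normoxia 1 to 4 and 14.96, 16.4, 17.8 and 18.2 CPM in hyperoxia 1 to 4. Normoxia 3 was the highest of its group, and hyperoxia 1, the lowest of the other, stood 4.27 CPM above it. From 8.03 ± 1.83 to 16.8 ± 1.47 CPM (SD, n = 4 each), Bok had the largest rise of the 10 genes, 2.09-fold or a log2 fold change of 1.07 (SE 0.146, edgeR adjusted p 0.000273). Without normoxia 2 its log2 fold change was 0.98, and 1 gene in place of 2 reached the 2-fold limit.

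Among the BH3-only genes, Bcl2l11 fell most. The BIM protein that Bcl2l11 (ENSMUSG00000027381, chromosome 2, 128126038 to 128162547) encodes binds all the survival proteins of the family. It had 80.1, 105, 79.8 and 96.0 CPM in normoxia 1 to 4 and 39.5, 40.4, 45.6 and 41.7 CPM in hyperoxia 1 to 4. All 4 hyperoxia libraries lay within a narrow range and far under normoxia 3, the lowest of its group. The means were 90.2 ± 12.4 and 41.8 ± 2.69 CPM (SD, n = 4 each), a 2.16-fold lower level in hyperoxia with a log2 fold change of -1.11 (SE 0.0924, edgeR adjusted p 8.75e-06).

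Bmf and Bik fell by similar amounts. Bmf (ENSMUSG00000040093, chromosome 2, 118528757 to 118549687) encodes a BH3-only protein that is held at the actin cytoskeleton until released. It had 53.03, 38.4, 40.4 and 41.4 CPM in normoxia 1 to 4 and 25.9, 24.4, 31.7 and 22.1 CPM in hyperoxia 1 to 4. Normoxia 1 and hyperoxia 3 were the high libraries of their groups. The log2 fold change was -0.73 (SE 0.124, edgeR adjusted p 0.00104), from 43.3 ± 6.61 to 26.0 ± 4.07 CPM (SD, n = 4 each).

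Bik (ENSMUSG00000016758, chromosome 15, 83526862 to 83544634) encodes a BH3-only protein of the endoplasmic reticulum membrane. It had 22.7, 25.0, 22.5 and 23.4 CPM in normoxia 1 to 4 and 13.5, 14.7, 13.1 and 15.1 CPM in hyperoxia 1 to 4. All 4 hyperoxia libraries lay below all 4 normoxia libraries, and the spread within groups was small. The means were 23.4 ± 1.15 and 14.1 ± 0.972 CPM (SD, n = 4 each), and the log2 fold change was -0.73 (SE 0.0762, edgeR adjusted p 4.3e-05).

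Bid went the other way. Bid (ENSMUSG00000004446, chromosome 6, 120891930 to 120916853) encodes a protein that caspase 8 cleaves into an active form, which links death receptors to mitochondria. It had 4.59, 5.29, 7.78 and 5.58 CPM in normoxia 1 to 4 and 9.65, 8.33, 10.6 and 8.49 CPM in hyperoxia 1 to 4. The groups were apart by 0.549 CPM only, between normoxia 3 and hyperoxia 2. From 5.81 ± 1.37 to 9.28 ± 1.09 CPM (SD, n = 4 each) the rise was 1.59-fold, a log2 fold change of 0.67 (SE 0.166, edgeR adjusted p 0.0092), the least precise of the 10. Exons of Bcl2l13, on the other strand, cover 17.7% of the exon bases of Bid. Bcl2l13 stood at 56.3 and 60.7 CPM (log2 fold change 0.11, edgeR adjusted p 0.156), and the sources used here do not give whether counting used the strand, so the level of Bid is uncertain.

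Levels of different genes were compared per gene length, as FPKM. Mcl1 led in both groups, at 198 ± 11.5 FPKM in normoxia and 195 ± 4.47 FPKM in hyperoxia (SD, n = 4 each). In normoxia the next were Bak1 at 20.6 FPKM, Bcl2l1 at 16.8 FPKM, Bcl2l2 at 15.9 FPKM and Bik at 14.6 FPKM. The ranges of Bcl2l1 and Bcl2l2 overlapped, as did those of Bcl2l2 and Bik. Bcl2l11 (11.1 FPKM), Bmf (8.18 FPKM), Bok (4.33 FPKM), Bcl2 (3.50 FPKM) and Bid (1.62 FPKM) followed, with overlapping ranges between Bcl2l11 and Bmf and between Bok and Bcl2.

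The order changed in hyperoxia. Bcl2l1 at 29.6 ± 1.02 FPKM took the place after Mcl1 and its range overlapped that of Bak1 (27.7 ± 2.01 FPKM). Bok, at 9.10 FPKM, came up to Bik, at 8.81 FPKM, with overlapping ranges. Bcl2, at 6.19 FPKM, lay above Bcl2l11 (5.17 FPKM) with ranges apart. Bmf (4.93 FPKM) overlapped both in range, and in hyperoxia 3 it stood at 6.01 FPKM where Bcl2 stood at 5.83 FPKM. Bid stayed lowest at 2.60 FPKM. The listed gene length covers all annotated exons, 9157 bases for Bcl2 and 1591 for Bik, so a gene of which ECs use a short transcript would be underrated.

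**Figure D3:**
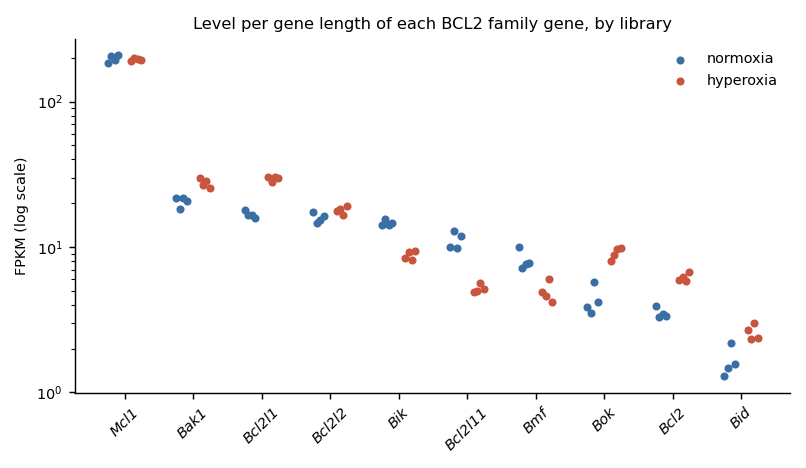
FPKM (vertical log axis) of the 10 genes in every normoxia (blue) and hyperoxia (red) library, ordered by the normoxia mean. Mcl1 stays near 200 FPKM in both groups, whereas Bcl2l1 moves above Bak1 and Bcl2 moves above Bcl2l11 in hyperoxia, while Bcl2 and Bmf overlap there.

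Summed by role within each library, these levels are given as a description, since the genes were chosen as a set. The 4 BH3-only genes followed here summed to 35.5 ± 1.37 FPKM in normoxia and 21.5 ± 0.892 FPKM in hyperoxia, and the 2 effectors to 24.9 ± 2.29 and 36.8 ± 1.56 FPKM (SD, n = 4 each). Survival genes without Mcl1 summed to 36.2 ± 1.98 and 53.7 ± 1.37 FPKM. The BH3-only sum was thus 0.984 ± 0.0703 times that sum in normoxia and 0.401 ± 0.0222 times in hyperoxia, with ranges of 0.906 to 1.07 and 0.380 to 0.431. These sums depend on the genes kept. With Bax, an effector gene that is a p53 target and rose, the effector sum was 59.0 ± 4.17 FPKM in normoxia and 129 ± 3.38 FPKM in hyperoxia. With Bbc3 and Pmaip1, the BH3-only genes that are p53 targets and rose, the BH3-only sum was higher in hyperoxia, at 80.9 ± 1.56 FPKM against 68.0 ± 3.74 FPKM in normoxia, and the ratio was 1.89 ± 0.177 in normoxia and 1.51 ± 0.0331 in hyperoxia. With Mcl1 included as well, that ratio was 0.290 ± 0.0108 and 0.325 ± 0.0069, higher in hyperoxia. Without Bbc3 and Pmaip1 but with Mcl1, it was 0.152 ± 0.00584 and 0.0865 ± 0.00357. With Mcl1 included, the survival sum was 234 ± 9.84 and 248.8 ± 3.64 FPKM, and Mcl1 held 84.5% of it in normoxia and 78.4% in hyperoxia. Bcl2l1 stood at 1.53 ± 0.248 times the FPKM of Bcl2l11 in normoxia and at 5.74 ± 0.338 times in hyperoxia. Within the sum of the 4 BH3-only genes the share of Bid went from 4.60% ± 1.27 to 12.1% ± 1.08 and that of Bcl2l11 from 31.3% ± 3.19 to 24.0% ± 0.653.

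**Figure D4:**
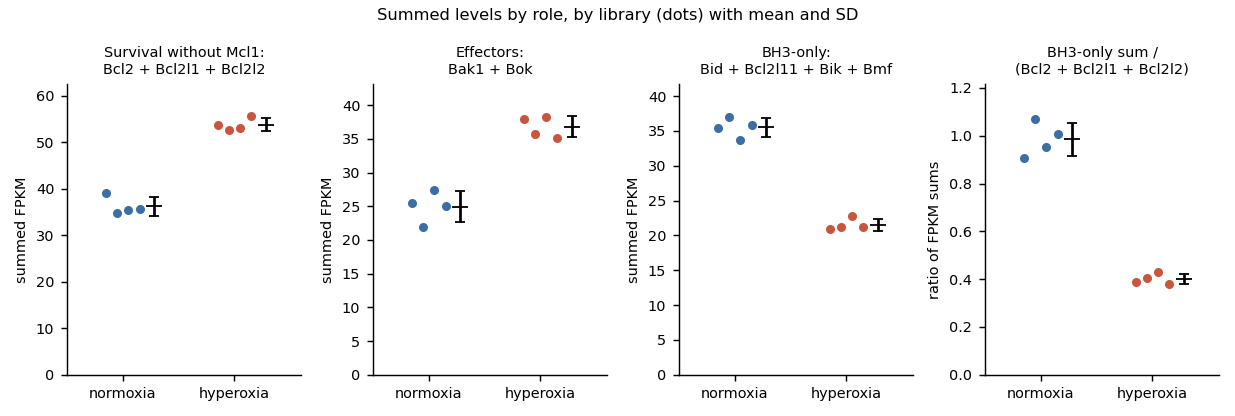
FPKM summed over genes of the same role in each library, and the ratio of the BH3-only sum to that of the survival genes other than Mcl1 (vertical axes from 0), for normoxia (blue) and hyperoxia (red) with mean and SD (n = 4). The ratio lies between 0.906 and 1.07 in normoxia and between 0.380 and 0.431 in hyperoxia for these genes only. Adding the BH3-only genes Bbc3 and Pmaip1, which are not drawn, gives means of 1.89 and 1.51. Adding Bax, also not drawn, gives mean effector sums of 59.0 and 129 FPKM.

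The values of the single genes were then set against the AT2 marker level, which also separated the groups. Hyperoxia 3 had the lowest AT2 marker level of its group. In it, 4 of the 10 genes (Bcl2, Bcl2l2, Bcl2l11 and Bmf) lay nearer to the normoxia mean than in any other hyperoxia library. The other 6 did not, among them Bcl2l1, at 140.0 CPM where the others ranged from 129 to 139 CPM, and Bik, at 13.1 CPM where they ranged from 13.5 to 15.1 CPM. The share of all genes tested with hyperoxia 3 nearest to the normoxia mean was not determined. Without hyperoxia 3, the log2 fold changes were -1.16 for Bcl2l11, -0.84 for Bmf, 0.85 for Bcl2 and 0.80 for Bcl2l1. In that fit 9 of the 10 genes passed, against 33.3% of all genes tested. With the mean log2 CPM of the AT2 markers (3.53 to 4.12 in normoxia, 5.30 to 6.71 in hyperoxia) as a term in the edgeR model, 1 of the 10 genes passed, Bcl2l1, with a log2 fold change of 0.83 and an adjusted p of 0.0256. In that model 1.27% of all genes passed, and the SE of Bcl2l11 grew from 0.0924 to 0.253. Its log2 fold change was then -0.66, that of Bmf was -0.36 and that of Bcl2 was 0.53, while those of Bok, Bid and Bik were 1.29, 1.20 and -0.91. Since this term and the exposure both separate the libraries, their parts cannot be told apart.

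**Figure D5:**
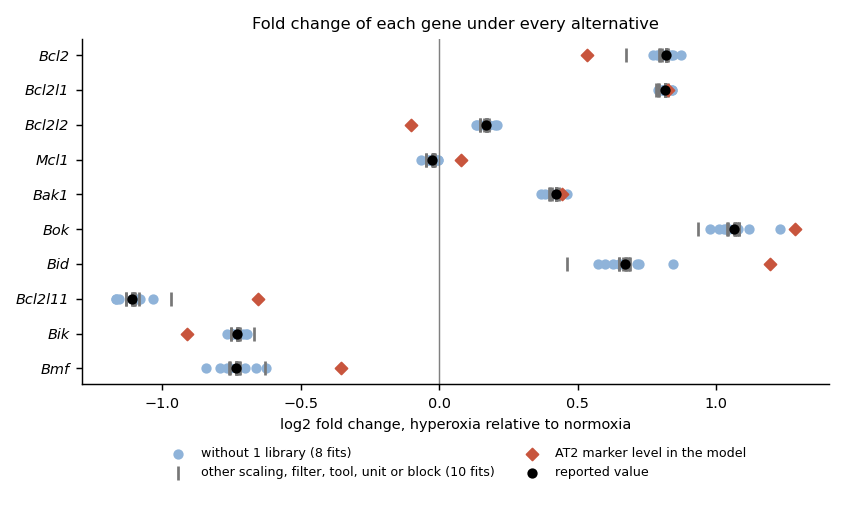
Log2 fold change of each gene (horizontal axis) as reported (black), without 1 library (light blue, 8 fits), under another scaling, filter, tool, unit or the replicate block (grey ticks, 10 fits) and with the AT2 marker level in the model (red diamonds). Bcl2l1 stays between 0.78 and 0.84 in all 19 alternatives, and Bcl2l11 lies between -1.17 and -0.97 in all but the AT2 model, where it is -0.66.

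Other genes of the pathway were read from lists of 6 kinds, whose counts stand against 35.6% of all genes past the test (18.5% higher and 17.1% lower). The family members known as p53 targets rose in 3 of 3 cases. Bax, the effector most like BAK, went from 54.1 ± 2.98 to 146 ± 7.52 CPM (SD, n = 4 each, log2 fold change 1.43, edgeR adjusted p 6.98e-08), Pmaip1 (NOXA) had a log2 fold change of 1.17 and Bbc3 (PUMA) of 0.66. Pmaip1 and Bbc3 are BH3-only genes and, like Bid, rose where Bcl2l11, Bik and Bmf fell. With the AT2 marker level in the model 1 of these 3 genes passed, and the count was 0 for each of the other pathway lists below.

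Of 12 further family genes, 6 passed the count filter and 1 passed the test. That gene was Bnip3l, a mitophagy receptor, which fell from 166 to 128 CPM (log2 fold change -0.38, edgeR adjusted p 8.44e-05). Bad, a BH3-only gene controlled by Akt, stood at 27.2 and 26.2 CPM (edgeR adjusted p 0.586), and Hrk had no count in any library. The median over the 6 tested was -0.27 on the log2 scale, and 2 of them passed without normoxia 4 and without hyperoxia 4.

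Among 7 genes of the apoptosome and caspases, 5 fell, with a median log2 fold change of -0.23. The largest falls were those of Casp2 (57.7 to 36.5 CPM, log2 fold change -0.66, edgeR adjusted p 9.15e-06) and Casp6 (log2 fold change -0.62, edgeR adjusted p 3.09e-05), followed by Casp9, the caspase of the apoptosome (log2 fold change -0.37), and Casp8, which cleaves BID (log2 fold change -0.23). Apaf1, the scaffold of the apoptosome, had 109 and 120.2 CPM (edgeR adjusted p 0.151). The count of 5 was 3 without normoxia 4, without hyperoxia 2 and without hyperoxia 4.

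Of 9 mitochondrial partners, 4 passed the test, a share near the 35.6% of all genes, and all 4 were higher. The list's median log2 fold change was 0.15. They were Cycs, which encodes cytochrome c (35.4 to 45.2 CPM, log2 fold change 0.35, edgeR adjusted p 0.00288), the channel genes Vdac1 (0.24) and Vdac2 (0.15), of which VDAC2 binds BAK, and Mtch2, which encodes a mitochondrial receptor of BID (0.24). This count was 2 without normoxia 4, without hyperoxia 2 and without hyperoxia 4. Of 4 caspase inhibitors, Birc3 rose (log2 fold change 0.40) and Birc2 fell (-0.34), and the list had a median of -0.00.

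Among 12 genes whose products control the members, 2 rose and 3 fell, with a median log2 fold change of -0.06. This share too was near the 35.6% of all genes. Foxo1 fell from 122 ± 14.7 to 93.0 ± 4.95 CPM and Foxo3 rose from 62.3 ± 3.80 to 81.0 ± 8.09 CPM (SD, n = 4 each). Both encode transcription factors known to activate Bcl2l11, and their log2 fold changes were -0.39 and 0.38 (edgeR adjusted p 0.00304 and 0.00234). Btrc, part of a ubiquitin ligase that marks BIM for degradation, fell (log2 fold change -0.45, edgeR adjusted p 0.000243), as did Dynll1, the dynein light chain that binds BIM (-0.32). Huwe1, a ubiquitin ligase of MCL1, had a log2 fold change of -0.14 (edgeR adjusted p 0.127).

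The profile of Bcl2l11 over the 8 libraries was most like that of Abi3bp, a matrix protein gene, by the root mean square difference of log2 CPM centred on normoxia (0.0481 on the log2 scale, with 9077 coding genes that averaged 10 CPM or more as candidates). Abi3bp fell from 121 ± 15.5 to 55.3 ± 0.984 CPM (SD, n = 4 each). Zfp36l1 (difference 0.0993) and Slc24a4 (0.11) came next, with log2 fold changes of -0.99 and -1.20. The profile of Bok was nearest to those of Rps27l (0.122), Fxyd5 (0.128) and Orai2 (0.149), with log2 fold changes of 1.09, 0.96 and 1.07. Because profiles were centred on normoxia, genes near by this measure have similar fold changes by construction.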

How the data were processed

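RNA of bead-isolated lung ECs was sequenced as paired ends of 150 bases on an Illumina NovaSeq. The authors deposited gene counts and FPKM for 8 libraries. The submitters' processing notes name HISAT2 2.0.5, featureCounts 1.5.0-p3 and build mm10. The strand setting and the handling of reads that match several genes are not given in the sources used here. The deposited FPKM equalled the count over gene length and over the library's total, up to a factor per library of 0.974 to 1.01. Coordinates of the 10 members matched GENCODE M21 (GRCm38), which was used for exon overlaps.

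Counts of genes kept by filterByExpr (15564 of 54532) were tested with edgeR 4.0.16 (R 4.3.3), TMM normalization and group as the only term, with Benjamini-Hochberg adjustment over all of them and a threshold of 0.05. CPM used TMM-scaled library sizes. Groups came from the sample titles. The study used DESeq2, here an alternative (1.42.0). The fit was tested on simulated data.

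Members and gene lists were chosen with earlier results of these data known. Named beyond the members were at most 4 genes per list past the test with the largest absolute log2 fold change, the abundant markers, overlapping genes, and the 3 nearest profiles of the largest rise and fall. Apaf1, Bad, Hrk, Huwe1, Tek and Emcn were named after their values were seen. Lists of airway, AT1, general epithelial, mural, fibroblast, macrophage, neutrophil, lymphocyte, and platelet and erythroid markers were also read. Promoter windows from RefSeq matched 9 of the 10 members, all but Bik. Alternatives were other scalings, filters, tools (with limma 3.58.1), FPKM with pseudocounts of 0.1 and 1, the replicate number, the AT2 marker level, and leaving out each library. SEs of edgeR fits were derived as the absolute log2 fold change over the square root of the F statistic. Intervals were built from these SEs with a t distribution, and so use the spread between libraries. Pooled over genes, counting error was smaller than that spread (chi-square per degree of freedom of at least 5.08 for every library and its closest partner). This pooled value does not show the same for each single gene.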

Additional observations from a re-analysis of the deposited data

How the results depend on the processing

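The counts of members were 8 past the test, 5 higher and 3 lower. Every alternative other than the AT2 marker level gave 8 or 9 past the test, the ninth being Bcl2l2 (RLE size factors, without normoxia 1, without hyperoxia 3). With the AT2 marker level as a covariate 197 genes in all passed in place of 5535, 1 member passed, 1 higher and 0 lower, none of the 10 at 2-fold (0), and Bcl2l2 (-0.10) and Mcl1 (0.078) changed sign. These 2 were not past the test in either model. With limma on log2(FPKM + 1) 0 members and 330 genes in all, in place of 2 and 1087, reached 2-fold, since the pseudocount shrinks fold changes. Leaving out 1 library gave 4526 to 5445 genes past the test, 8 to 9 members, 5 to 6 higher, 3 lower and 1 to 2 at 2-fold. Replicate numbers did not pair the libraries: deviations of same-numbered libraries correlated at 0.119, 0.0361, -0.125 and -0.14, and 1 of 8 libraries correlated best with its own number. With the replicate block 8 members and 4792 genes passed, and 2 mitochondrial partners in place of 4. That count was also 2 with library totals only, and the other BCL2 family genes past the test were 2 in place of 1 on both FPKM scales. The adjusted p of Bid, the member nearest the threshold among the 8, was at most 0.028 outside the AT2 model. The ratio of the BH3-only sum to the survival sum without Mcl1, 0.401 in hyperoxia, was 1.51 with Bbc3 and Pmaip1, 1.75 with Bad and Hrk as well, and 0.0865 with Mcl1 among the survival genes, 3 settings chosen after seeing the data. Depth limits Bid and Bok most, with as few as 75 and 116 counts in a library.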

Other observations

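The spread within groups differed between the genes. In normoxia the coefficient of variation was 23.7% for Bid and 22.8% for Bok, against 4.60% for Bcl2l1 and 4.91% for Bik. Normoxia 3 was the highest normoxia library for both Bid (7.78 CPM, others 4.59 to 5.58 CPM) and Bok (10.7 CPM, others 6.60 to 7.73 CPM). Without it the log2 fold change of Bid was 0.84 and that of Bok was 1.23. Bcl2l11 varied by 13.8% in normoxia and by 6.44% in hyperoxia.

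Markers of other lung cells were read as sums. All 6 AT1 epithelial markers were higher in hyperoxia, with a sum of 76.0 to 93.6 CPM in normoxia and 157 to 449 CPM in hyperoxia, and so were all 6 general epithelial markers (5.14 to 12.4 and 23.9 to 80.6 CPM). Of 8 mural markers 7 were tested and 6 were higher (23.5 to 47.9 and 45.4 to 107 CPM). Among 8 fibroblast markers 7 were tested and 4 were higher (179 to 360.2 and 242 to 631 CPM). The sums of both lists overlapped between groups. Of 8 macrophage markers 3 were higher and 1 lower (150.4 to 293 and 203 to 468 CPM). The 4 neutrophil markers had sums of 9.72 to 38.8 and 16.1 to 85.8 CPM and a median log2 fold change of 0.88, and the 7 lymphocyte markers had sums of 43.3 to 107 and 58.6 to 94.7 CPM and a median of -0.01. Of 7 airway markers 3 were tested and 1 was higher. It was Tppp3, the most abundant of the list, at 65.6 and 92.7 CPM with overlapping groups. The airway sums were 58.4 to 79.8 CPM in normoxia and 78.9 to 109.9 CPM in hyperoxia, with Krt5 at 0 in every library. Among 7 platelet and erythroid markers 6 were tested, and 1 was higher and 3 lower (119 to 206 and 97.1 to 142 CPM).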
